A study of Homo sapiens with 3 samples.

Results

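The 4 HOX gene clusters were described here from the acetylated histone and TEAD binding profiles of 786-O, an established line from a human kidney tumour of the clear cell type, which lacks functional VHL. A peak was taken as a member when its summit lay in 1 of 4 windows of the hg19 genome: HOXA at chr7:27110001-27255000, HOXB at chr17:46590001-46820000, HOXC at chr12:54320001-54460000 and HOXD at chr2:176940001-177070000. The windows span 145, 230, 140 and 130 kb. They held 48 of the 52667 H3K27ac regions and 47 of the 35241 TEAD regions that the authors deposited for chromosomes 1 to 22 and X. The rule for members uses position and no measured value, although the clusters were proposed with earlier results of these data known.

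The study comprised chromatin immunoprecipitated for H3K27ac, chromatin immunoprecipitated for TEAD, and input chromatin, with 1 library each. All 3 came from this line grown in medium with serum, with no treatment or genetic change named, and 786-O stands for 1 tumour only. The label names the antibody target as TEAD and gives no family member. With 1 library a group, nothing below has a replicate check; intervals are 95% intervals that cover counting error only, and no p-value is given.

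HOX genes encode homeodomain transcription factors that set positional identity along the body axis and in the limbs and urogenital tract. In each cluster they lie in the order in which they act along the axis, from the anterior genes (HOXA2, HOXB1) to the posterior genes of the AbdB type (HOXA13, HOXD13). H3K27ac marks active promoters and enhancers, while silent HOX genes usually carry Polycomb marks, which were not measured here. TEAD proteins bind DNA and recruit the co-activator YAP, the output of the Hippo pathway. HOXA11, HOXC11 and HOXD11 are known for their joint need in kidney formation.

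The clusters are duplicates of 1 ancestral cluster and carry related microRNAs, shown here because they sit among the members in windows with very different acetylation. MIR196B lies between HOXA9 and HOXA10, MIR196A1 between HOXB9 and HOXB13, and MIR196A2 between HOXC10 and HOXC9 in the RefSeq gene table. Mature sequences are from RefSeq (GRCh38.p14), 5′ to 3′, with the seed (bases 2 to 8) in capitals.
hsa-miR-196b-5p (HOXA): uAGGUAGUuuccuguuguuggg
hsa-miR-196a-5p (HOXB and HOXC): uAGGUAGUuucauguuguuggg
hsa-miR-10a-5p (HOXB, between HOXB4 and HOXB5): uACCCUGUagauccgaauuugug
The miR-196 microRNAs of the HOXA, HOXB and HOXC clusters share the seed AGGUAGU, and miR-10a-5p has another, ACCCUGU.

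All 38 listed HOX genes were found in the gene table, on the chromosome of their window. Promoters (250 bases before to 50 after the first listed start) were matched for 20 of them: 9 of 10 in HOXA, 1 of 10 in HOXB, 2 of 9 in HOXC and 8 of 9 in HOXD. Their median GC content was 58.0%, against 58.3% over all 27303 promoters of the table and 62.7% over the 15841 protein-coding ones. They held a median of 22.5 CpG, against 14 over all promoters and 22 over the protein-coding ones. GC content ran from 46.3% at HOXA2 to 76.3% at HOXA13, the posterior gene that patterns the digits and the genital tract.

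The TEAD hexamer GGAATG was searched on both strands (CATTCC on the other strand). It occurred in 7 of the 20 HOX promoters (35.0%) and in 14.0% of all promoters (11.7% of the protein-coding ones); HOXC4 and HOXC5 share 1 start, so they count the same match. By cluster it was in 1 of 9 HOXA promoters (HOXA10), both HOXC promoters and 4 of 8 HOXD promoters (HOXD4, HOXD8, HOXD10 and HOXD13). The AP-1 letters TGANTCA were in 0 of 20, against 7.76% of all promoters, and the NF-κB consensus was in 1 of 20 (HOXA2), against 5.72%. A match is a description of the letters and not a binding site, and its place relative to the hg19 peaks was not analysed here. The stretches below, from RefSeq (GRCh38.p14) and read along the gene's strand, all end before the start; capitals mark the hexamer.
HOXA10 (minus strand, hexamer from -234): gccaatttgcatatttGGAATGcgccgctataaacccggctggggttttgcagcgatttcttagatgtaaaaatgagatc
HOXC4 and HOXC5 (plus strand, from -144): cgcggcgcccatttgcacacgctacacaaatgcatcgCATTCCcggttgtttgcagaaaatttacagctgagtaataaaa
HOXD4 (plus strand, from -192): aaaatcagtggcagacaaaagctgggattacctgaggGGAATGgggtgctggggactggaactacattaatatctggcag
HOXD8 (plus strand, from -136): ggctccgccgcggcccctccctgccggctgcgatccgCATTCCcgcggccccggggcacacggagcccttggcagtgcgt
HOXD10 (plus strand, from -11): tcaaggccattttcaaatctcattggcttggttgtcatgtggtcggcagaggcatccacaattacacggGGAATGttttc
HOXD13 (plus strand, from -237): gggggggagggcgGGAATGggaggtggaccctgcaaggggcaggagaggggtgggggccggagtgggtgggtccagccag
Only the matched promoters were searched, not the TEAD peaks themselves, and 1 matched gene in HOXB and 2 in HOXC leave those clusters undescribed.

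All 4 clusters carried H3K27ac, and they differed in how much of the window it covered. In HOXA 12 regions covered 74.7 kb, 51.5% of the window. In HOXB 18 regions covered 64.4 kb, 28.0% of a longer window. HOXC and HOXD had 9 regions each, which covered 24.2 kb (17.3%) and 20.9 kb (16.1%). The 4 windows together were covered to 28.6%. The order of HOXB and HOXC rests on the window ends: from the first to the last H3K27ac region, coverage was 70.9% in HOXA, 51.3% in HOXC, 42.7% in HOXB and 22.5% in HOXD.

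**Figure D1:**
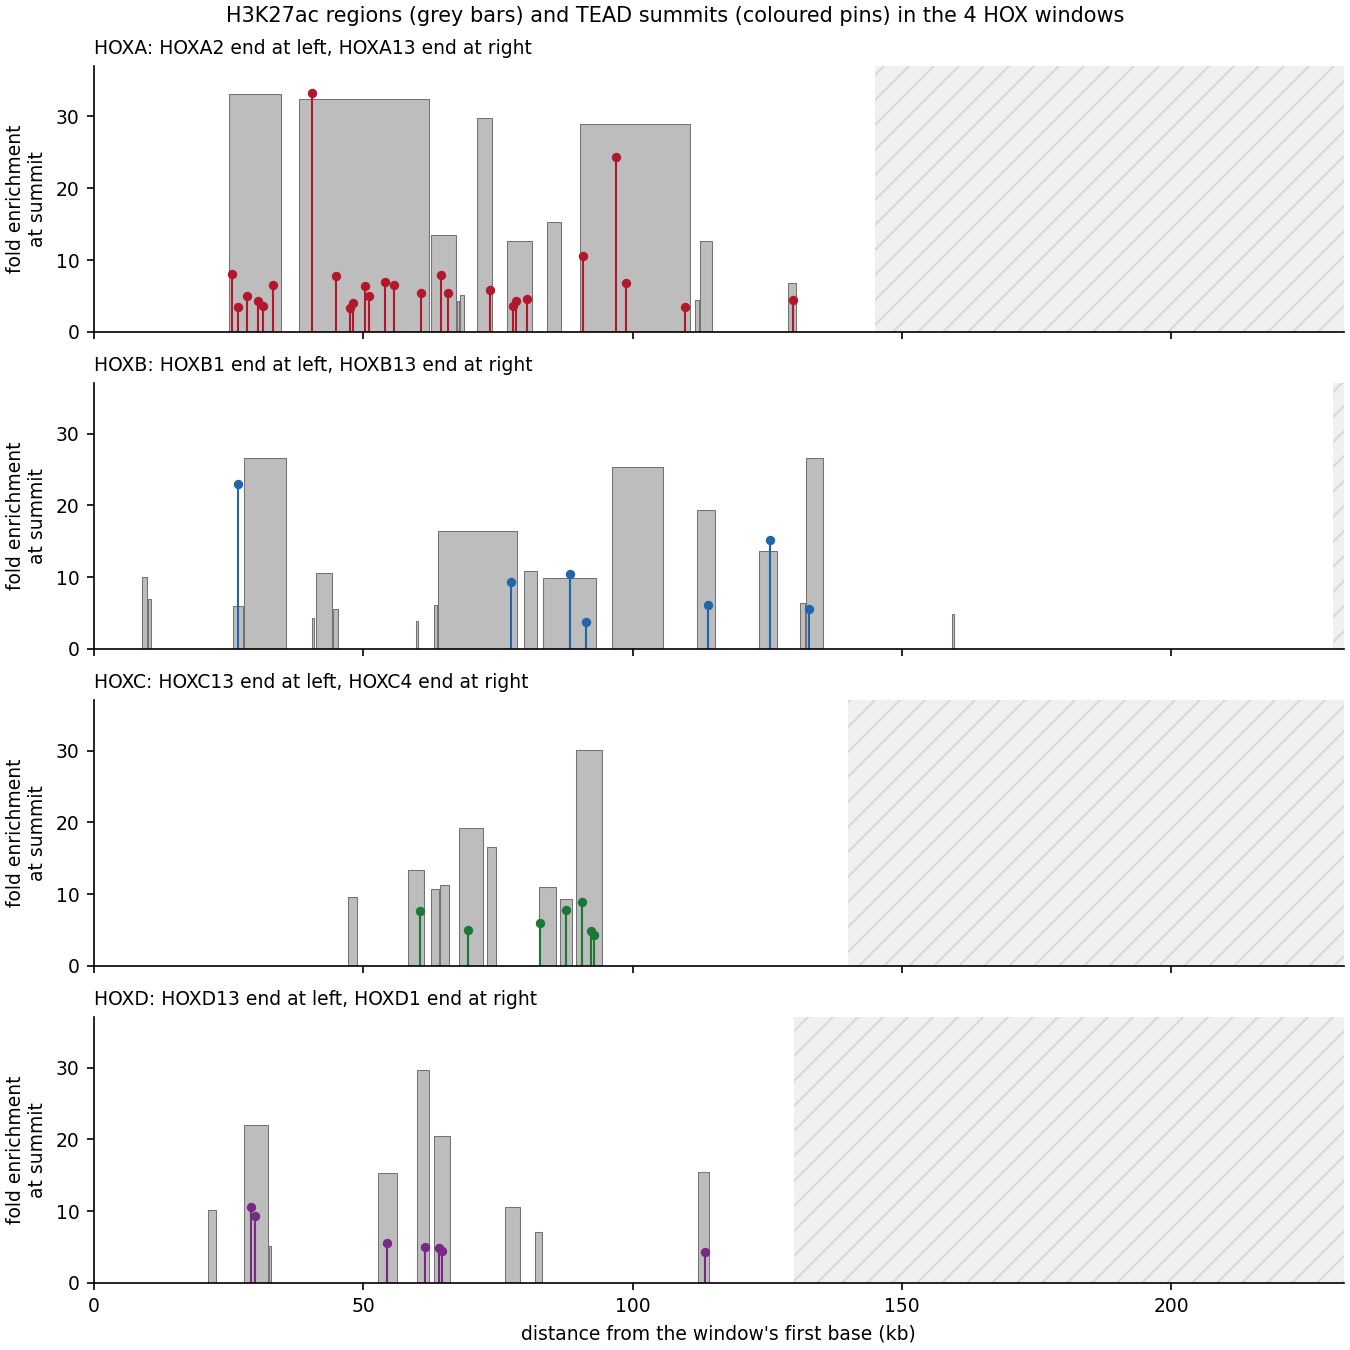
Position (distance from the first base of each window, in kb) and fold enrichment at the summit of the H3K27ac regions (grey bars, drawn to their width) and the TEAD summits (coloured pins). Hatching lies outside a window; the wide bars of HOXA and the 70.4 kb without a bar at the HOXB13 end of HOXB stand out.

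The clusters' numbers of H3K27ac regions per length differed by less than counting error. HOXA had 0.828 regions per 10 kb of window, HOXB 0.783, HOXC 0.643 and HOXD 0.692, and the interval of the ratio included 1 for all 6 pairs. Regions of at least 5 kb, a length chosen with the widths known, made up 2.97% of all H3K27ac regions; 7 of the 48 HOX regions reached it, 3 in HOXA and 4 in HOXB. They held 72.8% of the covered bases of HOXA and 64.9% of those of HOXB. HOXC and HOXD had none, and their widest regions were 4703 and 4340 bp.

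Median width differed little between the clusters, at 2765 bp in HOXA, 2109 bp in HOXB, 2091 bp in HOXC and 2248 bp in HOXD. The median of all H3K27ac regions was 950 bp, and 38 of the 48 HOX regions were wider than that. Median fold at the summit, the authors' enrichment over local background, was 13.1 in HOXA, 9.99 in HOXB, 11.2 in HOXC and 15.3 in HOXD, against 6.54 in the whole list. At least 10-fold was reached by 31 of 48 HOX regions, against 30.5% of all regions. The strongest region was of similar fold in each cluster: 33.2 in HOXA, 26.6 in HOXB, 30.1 in HOXC and 29.7 in HOXD, with overlapping counting intervals (27.8 to 39.4, 21.4 to 32.7, 24.5 to 36.6 and 24.2 to 36.1).

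Each window was set among consecutive tiles of its own length along the genome. The median 145 kb tile was covered to 0.394%, and 6 of 20913 tiles (0.0287%) were covered as much as HOXA. For HOXB 31 of 13180 tiles of 230 kb (0.235%) reached its coverage. HOXC was matched by 2.11% of 140 kb tiles and HOXD by 2.64% of 130 kb tiles. For HOXA, HOXC and HOXD a single tile holds every region of the cluster. The counts and shares of tiles, here and for TEAD regions, thus include the cluster itself. The HOXB window is divided between neighbouring tiles. For TEAD regions the order differed: 2 of 20913 tiles held as many as HOXA, whereas 12.6% held as many as HOXB, 5.09% as many as HOXC and 4.39% as many as HOXD.

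**Figure D2:**
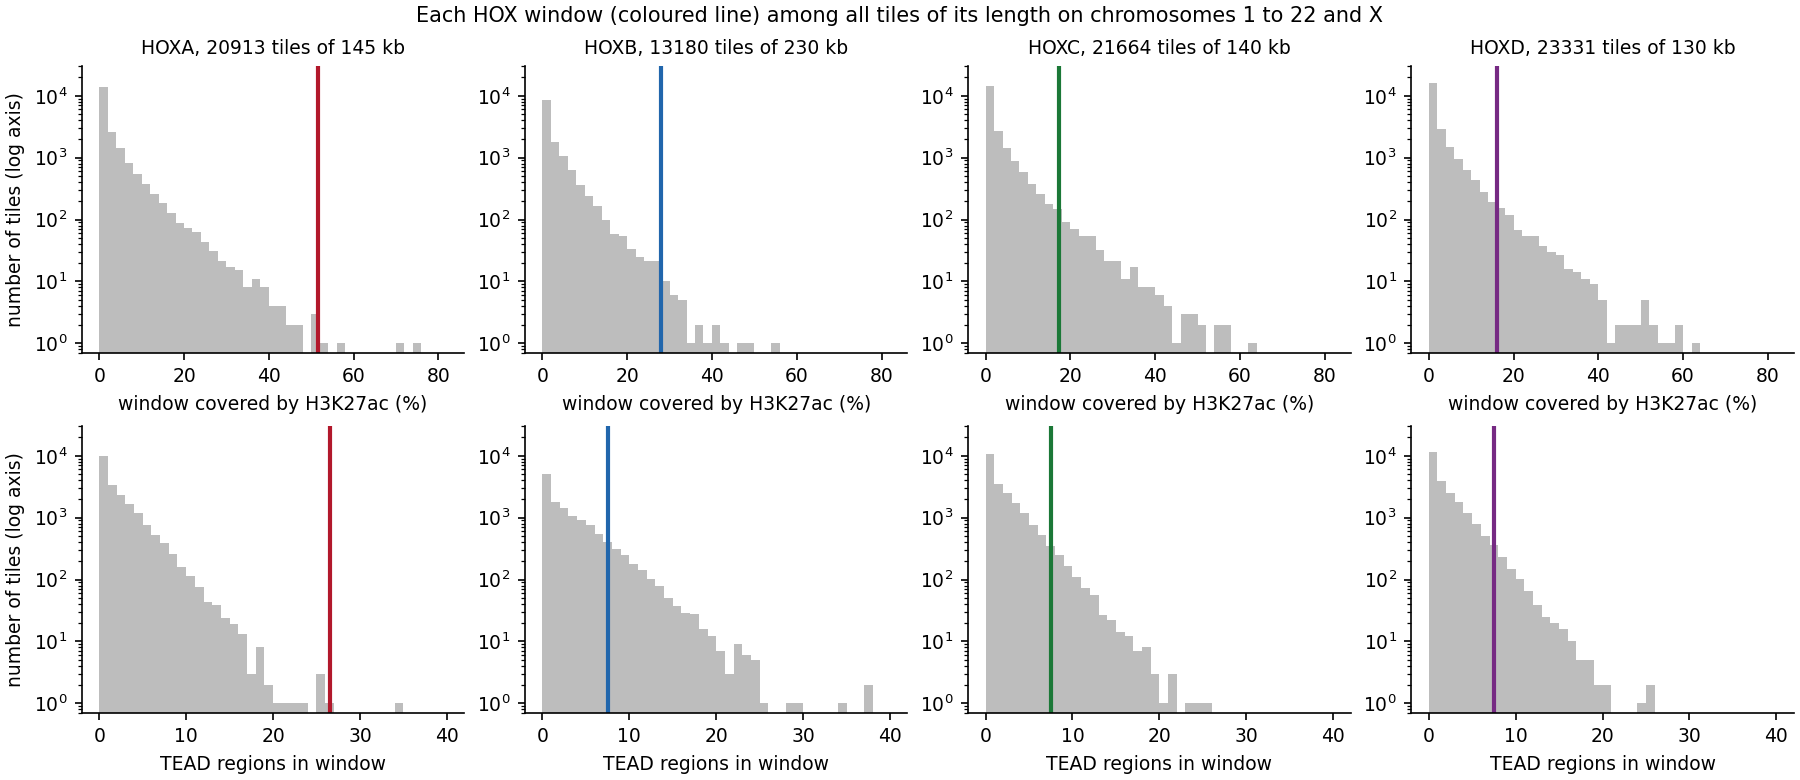
Numbers of tiles (log axis) by the share of bases covered by H3K27ac (upper row, %) and by the number of TEAD regions (lower row), for tiles of the length of each HOX window. The coloured line marks the HOX window: HOXA lies at 51.5% and 26 TEAD regions, in the far tail of both, while HOXB lies at 28.0% in the tail of coverage and at 7 within the body of the TEAD counts.

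HOXA had 26 TEAD regions, and HOXB, HOXC and HOXD had 7 each. Per 10 kb of window this was 1.79 (1.17 to 2.63) in HOXA, 0.304 (0.122 to 0.627) in HOXB, 0.50 (0.201 to 1.03) in HOXC and 0.538 (0.216 to 1.11) in HOXD. HOXA exceeded HOXB 5.89-fold (2.49 to 16.1), HOXC 3.59-fold (1.52 to 9.79) and HOXD 3.33-fold (1.41 to 9.09). The ratios among HOXB, HOXC and HOXD had intervals that included 1: HOXB to HOXC was 0.609 (0.182 to 2.03), HOXB to HOXD 0.565 (0.169 to 1.89) and HOXC to HOXD 0.929 (0.278 to 3.10).

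Every one of the 47 TEAD regions overlapped H3K27ac, and every summit lay inside an H3K27ac region, at least 118 bp from its edge. The lower limit of that share is 92.4% (Wilson). Over the whole list 68.4% of TEAD regions overlapped H3K27ac and 55.3% had the summit inside. In tiles covered at least as much as each HOX window the share of TEAD summits inside was 99.3% of 142 for HOXA, 90.7% of 656 for HOXB, 84.6% of 4571 for HOXC and 83.5% of 5510 for HOXD. These tiles include those that hold HOXA, HOXC and HOXD, so the shares count the TEAD regions of these clusters as well. The tile shares were higher than the share over the whole list, and the HOX share was not tested against them.

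Counted per acetylated length, the order of the clusters stayed the same, but HOXC and HOXD lay closer to HOXA. TEAD summits per 10 kb of H3K27ac were 3.48 (2.27 to 5.10) in HOXA, 3.35 (1.35 to 6.91) in HOXD, 2.89 (1.16 to 5.96) in HOXC and 1.09 (0.437 to 2.24) in HOXB, against 2.57 over all H3K27ac. HOXA exceeded HOXB 3.20-fold (1.35 to 8.73), and this was the only 1 of 6 pairs whose interval left out 1. With TEAD regions of at least 5-fold only, the ratio was 2.15 and its interval (0.790 to 6.77) included 1. HOXA to HOXC was 1.20 (0.509 to 3.28) and HOXA to HOXD 1.04 (0.439 to 2.83), and these intervals do not show that the clusters are alike. The HOXB value was also below 2.57 at the upper end of its interval.

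**Figure D3:**
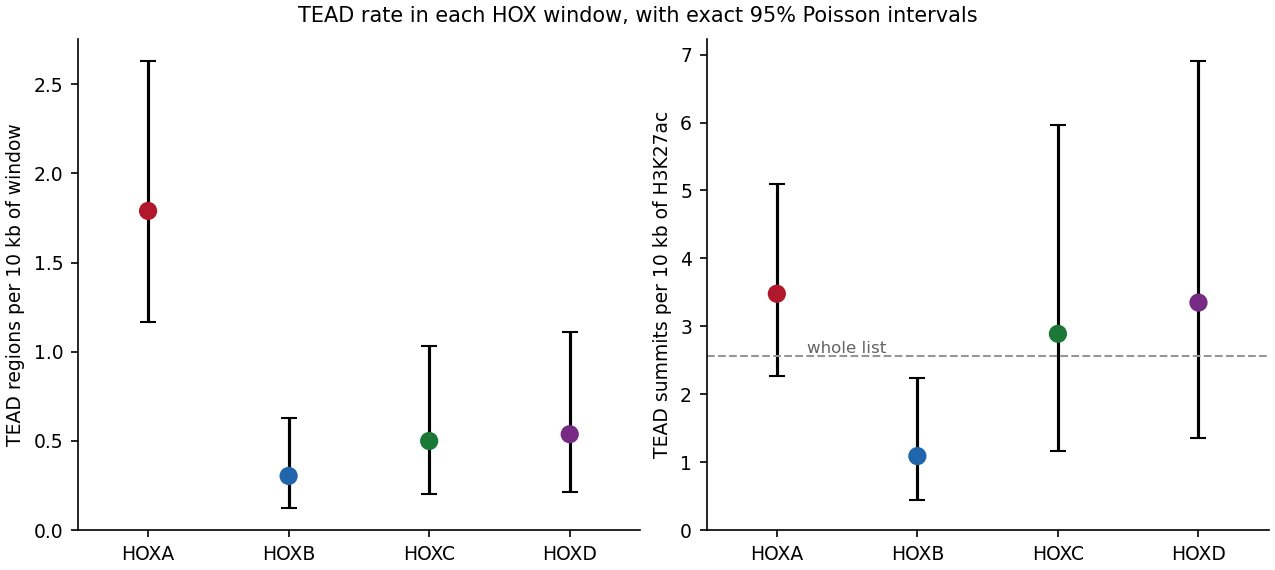
TEAD regions per 10 kb of window (left) and TEAD summits per 10 kb of H3K27ac (right) in each cluster; points are rates from 1 library and bars are exact 95% Poisson intervals. The dashed line is the rate over the whole list, 2.57; HOXA leads at 1.79 on the left, and HOXB lies lowest, at 1.09, on the right.

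The TEAD regions of the HOX windows were mostly of modest enrichment. Their median fold was 5.57, against 7.14 for all TEAD regions, and 7 of 47 reached 10-fold, against 30.4% of the list. The pileup at the summit, recovered as a whole number of reads from the deposited fold and −log10 p, had a median of 25 reads, close to the 24 of the list. The recovered background was higher, with a median of 3.45 reads against 2.45, and 39 of the 47 lay above the list's median. All 47 summits lay inside H3K27ac, and over all TEAD summits inside H3K27ac the median background was 2.81 reads. TEAD summits in H3K27ac regions of at least 5 kb anywhere had a median fold of 7.88, and the 22 in such regions of HOXA and HOXB had 6.40. By cluster, the median fold of TEAD regions was 5.39 in HOXA, 6.02 in HOXC and 4.99 in HOXD, below the list's 7.14. HOXB, with 3 of its 7 TEAD regions at 10-fold or more, had a median of 9.34, above the list's.

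The background differed between the clusters. At TEAD summits its median was 4.06 reads in HOXA, 3.21 in HOXD, 2.64 in HOXB and 2.26 in HOXC. Chromosome 7 as a whole had 3.02, chromosome 2 had 2.38, and chromosomes 12 and 17 had 2.10. DNA copy number was not measured, and the part of the background in the folds and counts of HOXA was not tested. Median pileup was 26 reads in HOXA, 28 in HOXB, 19 in HOXC and 22 in HOXD.

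**Figure D4:**
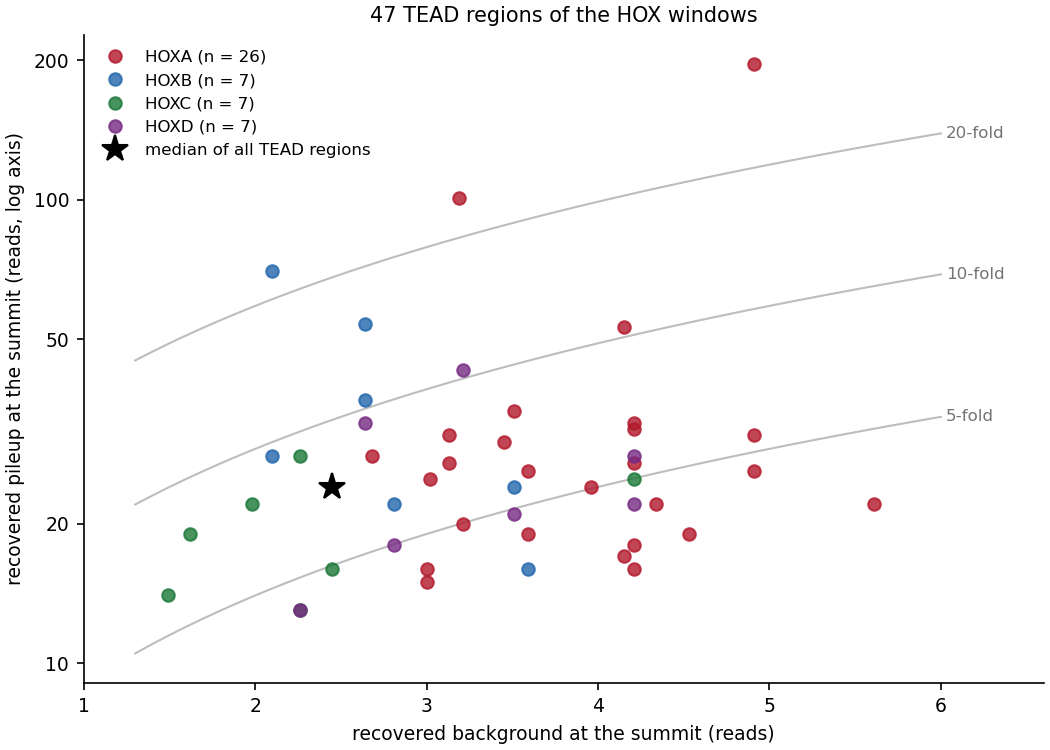
Recovered pileup (reads, log axis) against recovered background (reads) at the 47 TEAD summits; grey curves join points of equal fold, and the star is the median of all TEAD regions. HOXA points lie at backgrounds of 2.68 to 5.61 reads, most of them with pileups of 15 to 35 reads and the strongest with 196 and 101; 1 HOXC and 1 HOXD point coincide at 13 reads.

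HOXA was acetylated over most of its length, without a break of more than 14.1 kb between regions. Its widest region, chr7:27148143-27172289, was 24147 bp long at 32.5-fold (155 reads) and ranked 5 by width among all H3K27ac regions. It held 9 TEAD regions. The region chr7:27200178-27220702 was 20525 bp long (rank 13) at 29.0-fold and held 4, and chr7:27134998-27144693 was 9696 bp long at 33.2-fold and held 6. These 3 regions held 19 of the 26 HOXA TEAD regions. At least 3 TEAD regions were held by 4 HOXA regions and 1 HOXC region, against 1.27% of the whole list. The narrowest of these HOX regions was 4619 bp wide, against a list median of 950 bp, and the part of width in this count was not tested. In H3K27ac regions of at least 5 kb, TEAD summits per 10 kb were 3.49 (2.10 to 5.46) in HOXA and 2.86 over the list.

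The strongest TEAD region of HOXA, chr7:27150157-27151361, reached 33.3-fold (28.9 to 38.3) with 196 reads over a background of 4.91. It ranked 1081 of the 35241 TEAD regions and lay in the widest acetylated region, 2391 bp inside its lower-coordinate edge and 12778 bp from its H3K27ac summit. The next, chr7:27206560-27207311, reached 24.3-fold (19.9 to 29.5) with 101 reads, and the third, chr7:27200337-27201219, 10.5-fold (7.90 to 13.7) with 53 reads. Both lay in the 20525 bp region. The other 23 ran from 3.26- to 7.99-fold, and 11 of the 26 were below 5-fold. HOXA TEAD summits were spaced by a median of 2197 bp, the closest pair by 577 bp.

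Along HOXA, from the HOXA2 end at low coordinates to the HOXA13 end, acetylation began 25.0 kb into the window. The 10 kb bins from 40 to 60 kb were covered to 100%, as was the bin from 100 to 110 kb, and each bin from 20 to 80 kb held 3 or 4 TEAD regions. Coverage dropped to 39.9% between 80 and 90 kb, the stretch around chr7:27194013-27196767, a 15.3-fold region without TEAD. With the window divided at its midpoint, the HOXA2 side was covered to 56.5% with 17 TEAD regions (9.90 to 27.2), and the HOXA13 side to 46.6% with 9 (4.12 to 17.1). These intervals overlap. About the midpoint of the acetylated span, coverage was 82.5% and 59.3%, a larger difference in the same direction.

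HOXB combined broad acetylation with few TEAD regions. Its widest regions were chr17:46653856-46668610 (14755 bp, rank 40, 16.4-fold, 1 TEAD region), chr17:46673450-46683195 (9746 bp, 9.93-fold, 2 TEAD regions) and chr17:46686201-46695573 (9373 bp, 25.3-fold, none). Another region of at least 5 kb, chr17:46617819-46625731 (7913 bp, 26.6-fold), also held none. So 2 of the 4 broad HOXB regions lacked TEAD, whereas 3.32% of the 1565 such regions in the list did. Both were strongly acetylated: among the 52 TEAD-free regions of this width they ranked 5 and 8 by fold and 8 and 3 by width.

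TEAD peaks lay near both of these regions. The nearest was 749 bp from the 7913 bp region and 4381 bp from the 9373 bp region, against a median of 5256 bp for all 52. The first of these peaks, chr17:46616551-46617069, was the strongest of HOXB, at 22.9-fold (17.9 to 28.8) with 70 reads. It sat in a separate H3K27ac region of 1769 bp and only 6.02-fold. The second strongest, chr17:46715110-46715688, reached 15.1-fold (54 reads) and the third, chr17:46678019-46678514, 10.4-fold (37 reads). Of the 7 HOXB TEAD regions 3 reached 10-fold, and the weakest was at 3.71-fold. Their median fold of 9.34, against 5.39 in HOXA, stood beside median pileups of 28 and 26 reads and median backgrounds of 2.64 and 4.06.

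The HOXB window divided into an acetylated part on the HOXB1 side and an unmarked part on the HOXB13 side. The HOXB1 side of the midpoint was covered to 48.7% and the HOXB13 side to 7.23%. About the midpoint of the acetylated span, which leaves out the unmarked end, coverage was 45.9% and 39.5%. No H3K27ac region had its summit in the last 70.4 kb, chr17:46749608-46820000, and a further 23.9 kb, chr17:46725386-46749277, was free of the mark. Between them lay 1 region of 330 bp at 4.85-fold (11 reads). The RefSeq order places HOXB13, a posterior gene best known from prostate development, after HOXB9 at this end. The 7 TEAD regions lay 5 to 2 about the midpoint of the window and 2 to 5 about the midpoint of the acetylated span, so no side of HOXB had more of them under both divisions.

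HOXC was acetylated only in its middle. All 9 regions lay within chr12:54367104-54414265, between 47.1 kb without H3K27ac on the HOXC13 side and 45.7 kb on the HOXC4 side. Within that span 51.3% of bases were covered. The widest region, chr12:54409563-54414265 (4703 bp), was also the strongest, at 30.1-fold (99 reads), and held 3 of the 7 TEAD regions. The next by width were chr12:54387699-54392274 (4576 bp, 19.2-fold) and chr12:54402622-54405815 (3194 bp, 11.0-fold), with 1 TEAD region each.

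No TEAD region of HOXC reached 10-fold. The strongest 3 were chr12:54410291-54410765 at 8.88-fold (6.01 to 12.7; 28 reads), chr12:54407401-54407766 at 7.71-fold (22 reads) and chr12:54380219-54380666 at 7.63-fold (19 reads). The weakest, at 4.29-fold, had 13 reads. All 7 lay within 32.5 kb, so HOXC had the shortest TEAD span of the clusters, against 84.2 kb in HOXD, 104 kb in HOXA and 106 kb in HOXB. The HOXC4 side of the midpoint held 5 TEAD regions (1.62 to 11.7) and the HOXC13 side 2 (0.242 to 7.22), with overlapping intervals.

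HOXD carried separate regions of moderate width. The widest were chr2:176967952-176972291 (4340 bp, 22-fold, 2 TEAD regions), chr2:176992812-176996299 (3488 bp, 15.3-fold, 1) and chr2:177016277-177019178 (2902 bp, 10.6-fold, none). The strongest, chr2:176999989-177002236, was 2248 bp wide at 29.7-fold (99 reads) with 1 TEAD region. Stretches of 29.1, 19.9 and 10.2 kb without H3K27ac lay between the regions, and coverage was 21.3% on the HOXD13 side of the midpoint and 10.8% on the HOXD1 side. About the midpoint of the acetylated span it was 32.0% and 12.9%.

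The HOXD TEAD regions were the weakest by median, 4.99-fold, and 4 of 7 were below 5-fold. The strongest 2, chr2:176968624-176969372 at 10.5-fold (7.63 to 14.0; 43 reads) and chr2:176969695-176970244 at 9.34-fold (33 reads), were neighbours within the 4340 bp region on the HOXD13 side. The third, chr2:176994171-176994639, reached 5.57-fold (28 reads). The HOXD13 side held 6 TEAD regions (2.20 to 13.1) and the HOXD1 side 1 (0.0253 to 5.57), again with overlapping intervals.

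Over the 4 clusters 23 of 48 H3K27ac regions carried TEAD, close to the 41.7% of the whole list, although the HOX regions were wider than most. They were 7 of 12 in HOXA, 6 of 18 in HOXB, 5 of 9 in HOXC and 5 of 9 in HOXD. Regions with TEAD had a median width of 3488 bp and a median fold of 16.4, and those without had 1180 bp and 9.63. In HOXA the contrast was 4638 bp at 29.0-fold against 770 bp at 5.08-fold. In HOXC it was smaller, 3194 bp at 13.3-fold against 1688 bp at 11.0-fold. Longer regions offer more room for a summit, and the part of width in these contrasts was not tested.

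**Figure D5:**
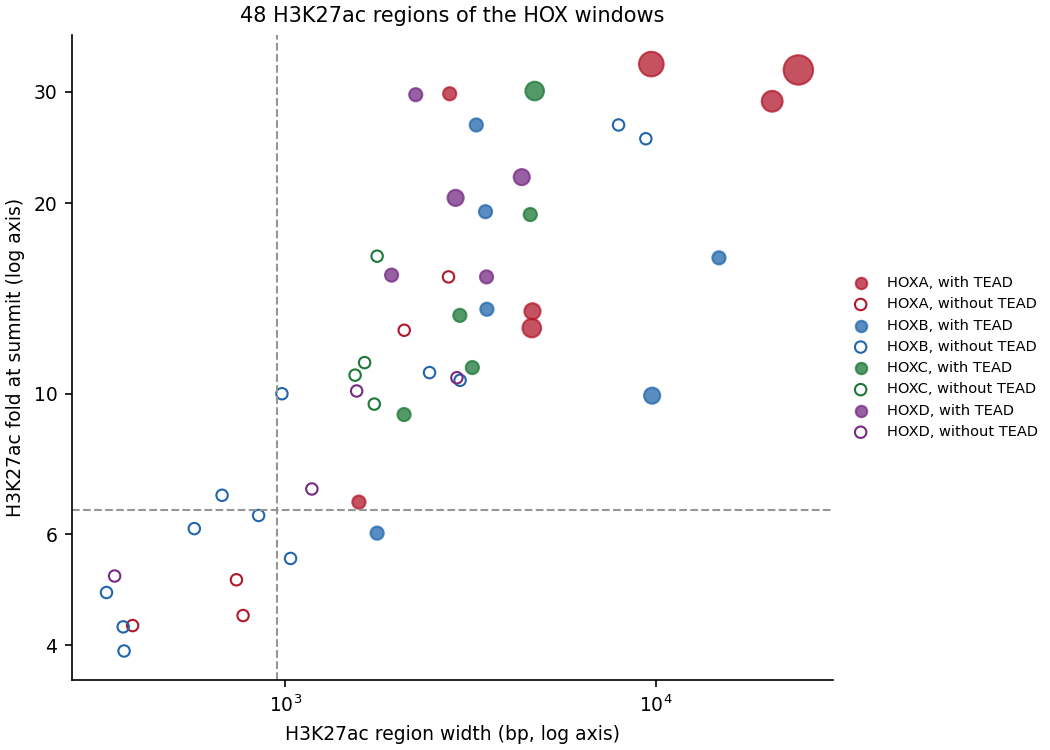
Width (bp, log axis) and fold at the summit (log axis) of the 48 H3K27ac regions; filled symbols carry TEAD and grow with the number of TEAD regions, open symbols carry none, and dashed lines are the medians of the whole list. The 24147 bp HOXA region with 9 TEAD regions is at the upper right, and the TEAD-free HOXB regions of 7913 and 9373 bp stand near it.

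TEAD summits lay farther from the H3K27ac summit of their region in HOXA than elsewhere, at a median of 2877 bp, against 634 bp in HOXB, 376 bp in HOXC, 233 bp in HOXD and 400 bp over the list. Over the whole list this distance was longer in wide regions: 1327 bp for TEAD summits in H3K27ac of at least 5 kb and 358 bp in narrower regions. The 22 summits in such wide regions of HOXA and HOXB had a median of 4519 bp. The part of width in the HOXA distance was not tested.

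With neighbouring H3K27ac regions merged across at most 12.5 kb, and the resulting 22587 domains ordered by the sum of fold times width, each cluster had a domain among the 863 large ones, those beyond the point where the rank curve reaches slope 1. HOXB had chr17:46649807-46725385 (75.6 kb, rank 47, 6 TEAD regions) and chr17:46615893-46635345 (19.5 kb, rank 497, 1 TEAD region). The HOXC domain of 47.2 kb ranked 226 with 7, and the HOXD domain chr2:176992812-177023086 of 30.3 kb ranked 694 with 4. The HOXA domain ranked 4 with 25 TEAD regions over 89.7 kb. The HOXB domain at rank 47, nearly as long, held 6.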

How the data were processed

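H3K27ac, TEAD and input chromatin of 786-O cells were profiled with 1 library each; the input itself was not analysed. The submitters' processing notes name fastp, Bowtie2 2.4.5, MACS2 and genome build hg19; roles, parameters and the control used in calling: not given in the sources used here. For each peak the authors deposited a fold over local background (a ratio), its −log10 p and −log10 q, a score (not used here) and the summit offset. Chromosome Y was dropped (183 H3K27ac and 123 TEAD regions); the lowest deposited −log10 q was 2.05 and 2.03.

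A pileup and background were solved for each summit from fold = (pileup + 1)/(background + 1) and the Poisson tail p; a whole pileup fitted 100% of peaks within 0.002 of −log10 p, and the step was tested on simulated data. The lowest pileup was 7 reads in both lists. Overlap means at least 1 bp. Rates have exact Poisson, rate ratios exact conditional (Clopper-Pearson) and shares Wilson 95% intervals. Python 3.11.15 and scipy 1.17.1 were used.

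In each cluster the 3 widest H3K27ac regions, the 3 TEAD regions of highest fold and the longest stretches without H3K27ac were named by rule; the other regions named, the 5 kb and 10-fold limits and the domains lie outside it and were chosen with values known. No TEAD region lacked H3K27ac. Members and lists were chosen with earlier results of these data known. No hg19 annotation was used, so peaks were not assigned to gene starts, HOX cofactors or cell type markers, which were not analysed here; gene order came from RefSeq (GRCh38.p14), without its coordinates. Alternatives were other membership, overlap, bin, window and midpoint rules, −log10 q of at least 5 and TEAD of at least 5-fold; the closing section gives their effect.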

Additional observations from a re-analysis of the deposited data

How the results depend on the processing

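Of 156 values recomputed under other settings, 137 stayed within their interval, interquartile range or 1.5 times the reported value. Of the others, 17 moved, 1 changed direction and 1 lost its side of the interval. Many of the 137 could not change, so their number does not measure robustness. No region crossed a window end, so any overlap gave the same members. Shortened windows kept the same regions, and with them the counts, widths and TEAD summits per 10 kb of H3K27ac. With windows shortened to the span from the first to the last H3K27ac region, coverage was 70.9% in HOXA, 42.7% in HOXB, 51.3% in HOXC and 22.5% in HOXD, so HOXC then stood above HOXB; TEAD regions per 10 kb of window rose to 1.48 in HOXC, since the span is shorter. With TEAD regions of at least 5-fold only, HOXC had 4 TEAD regions and HOXD 3 (median fold 9.34 in HOXD, by the limit itself), and HOXA had 15, 1.03 per 10 kb of window and 2.01 per 10 kb of H3K27ac, and the HOXA to HOXB ratio per acetylated length was 2.15 (0.790 to 6.77). The difference in TEAD regions between the lower- and higher-coordinate side of HOXB was 3 about the midpoint of the window and -3 about that of the acetylated span. Between the same sides, the difference in coverage went from 9.95 to 23.1 percentage points in HOXA, 41.5 to 6.44 in HOXB, -5.51 to -10.5 in HOXC and 10.4 to 19.0 in HOXD. The TEAD difference fell from 8 to 5 in HOXA with −log10 q of at least 5, and from 5 to 3 in HOXD with at least 5-fold. Bins of 5 or 20 kb in place of 10 kb kept the share of bins without H3K27ac within its interval in every cluster. A minimum −log10 q of 5 moved none of the coverage, TEAD rate or overlap values beyond these limits. The share of TEAD regions overlapping H3K27ac was 100% under every alternative that was run. The any-overlap, summit and TEAD fold rules could not lower it, because every summit already lay inside H3K27ac. The planned comparison at gene starts was not run, as no annotation of hg19 was used. No paired analysis was possible because each group has 1 library. Depth limits the weakest regions, called on as few as 11 reads for H3K27ac and 13 for TEAD; a stretch without a region is one where no peak passed the caller, not one shown to lack the mark.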
